A study of Homo sapiens with 12 samples.

Results

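The response of HEK293 cells to a short hairpin against NCSTN is described here across all genes measured. HEK293 is an established human embryonic kidney line, and NCSTN encodes nicastrin, the glycoprotein subunit of gamma-secretase. The comparison takes the 6 arrays of this line among the 12 of the series, 3 from cells with the NCSTN hairpin and 3 from cells with the control hairpin, as the sample titles name them. In the NCSTN group the cells carried a lentiviral hairpin against NCSTN, and in the control group a pLKO hairpin against luciferase. The handling that the labels describe was the same in both groups, while no slide or scan is named. The cells grew in DMEM with 10% fetal bovine serum, were infected in the presence of 10 µg/mL polybrene for 24 h, and were then held under 2 µg/mL puromycin for about 2 weeks. Labelled RNA was prepared from 100 ng of total RNA and hybridised to Illumina bead arrays, 1 array per sample. A single NCSTN hairpin was used, so no second hairpin checks its effects. Nothing in the labels says that the 3 samples of a group came from separate cultures, and the p-values below therefore speak only of the variation among these 6 arrays, part of which may be technical.

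Gamma-secretase is a membrane protease made of presenilin, nicastrin, APH-1 and PEN-2. It cuts single-pass membrane proteins within the membrane, usually after a sheddase has removed their outer part, and nicastrin takes part in admitting the shortened stubs to the catalytic subunit. The cut of a Notch receptor releases an intracellular domain that acts with the DNA-binding protein RBPJ on target genes such as the HES and HEY repressors. The amyloid precursor protein, E-cadherin, N-cadherin, CD44 and many ephrins and receptor tyrosine kinases are cut in the same way. HEK293 cells are widely used to assay the enzyme because they express every subunit.

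The target of the hairpin is shown because the whole comparison rests on this single sequence of 21 bases, given as the labels write it, 5′ to 3′. Its place in the NCSTN transcript was not analysed here.
NCSTN hairpin target: gctctactgaatactctacat

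The label for the sample source gives HEK001, a keratinocyte line, for these 6 samples too, while their titles and cell line entries give HEK293. The markers of the lines were therefore read first. Of 14 genes typical of HEK293, 11 were measured above the detection filter, among them LIN28B, IRS4, TUBB2B, ZCCHC12 and CYFIP2, and WT1 was below it. Of 16 basal keratinocyte markers, 9 were below the filter, the keratins KRT5 and KRT14 included, 6 had no named probe here, and DSC3, a desmosomal cadherin, was measured. Of 10 fibroblast markers only COL1A1 was measured, while 1 was below the filter and 8 had no named probe here. Of 8 leukocyte markers CD14 and LCP1 were measured, 2 were below the filter and 4 had no named probe. Of 8 endothelial markers none was measured, all 8 having no named probe here. Between 14818 and 16333 of 47318 probes were detected per array, with a median of 22 beads per probe. Across genes, Pearson's r was 0.9915 to 0.9928 between arrays of the NCSTN group, 0.9891 to 0.9926 between control arrays and 0.9736 to 0.9774 between arrays of opposite groups.

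Values below are normalized log2 intensities, on which a difference of 1 is 2-fold, and every difference is the NCSTN hairpin minus the control hairpin. NCSTN itself stood at 7.62, 7.65 and 7.77 on the NCSTN-hairpin arrays, against 9.49, 9.64 and 9.62 on the control arrays. The groups did not overlap, and NCSTN fell by 1.90 (SE 0.096, adjusted p = 7.66e-06). Its level in knockdown cells was thus 26.7% of that in control cells, with a 95% interval of 23.0% to 31.0%. The value rests on 1 probe, detected on all 6 arrays. None of the other 4 subunits measured passed the threshold of an adjusted p under 0.05. APH1A, a scaffold subunit, differed by 0.23 (adjusted p = 0.234), its paralog APH1B by 0.24 (adjusted p = 0.108), PSENEN, which encodes PEN-2, by 0.22 (adjusted p = 0.341), and the presenilin PSEN2 by 0.08 (adjusted p = 0.546). These values come from the brightest probe of each, and second probes gave -0.04 for APH1A, 0.21 for APH1B and -0.33 for PSEN2 (adjusted p = 0.0744), none of them called.

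Across the line, 9506 genes had a probe detected on all 3 arrays of at least 1 group. Of these, 2749 passed the threshold, which is 28.9% of the genes tested. The NCSTN hairpin was the higher group for 1307 of them (13.7%) and the lower for 1442 (15.2%). Most differences were modest. Of the genes called higher, 708 differed by 0.25 to 0.5 and 514 by 0.5 to 1 on the log2 scale, and of those called lower, 593 and 698 did. Only 85 genes (0.894%) were called and at least 2-fold higher, and 151 (1.59%) were called and at least 2-fold lower. Differences of 2 or more on the log2 scale were reached by 7 genes upward and 8 downward. The median difference over all genes was 0.0061. The groups did not overlap for 2128 genes that were higher (22.4%) and 2154 that were lower (22.7%). Among the calls, 368 genes missed detection on 1 or more arrays of the dimmer group, and for these the fold is given as a bound ("at least"). Calls came from dim and bright genes, with 30.1% of the dimmest 3169 genes called, 32.2% of the next 3168 and 24.5% of the brightest 3169. With arrays scaled to a common median in place of quantile normalization, 872 genes passed (335 higher and 537 lower), of which 867 were among the 2749. Without replicate 3 of the NCSTN group, 852 genes were called higher. Of the 239 genes named as called in this text, 74 were not called with median scaling, none of which differed by more than 0.65. Without some single array 34 of the 239 were not called, none of which differed by more than 0.70.

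**Figure D1:**
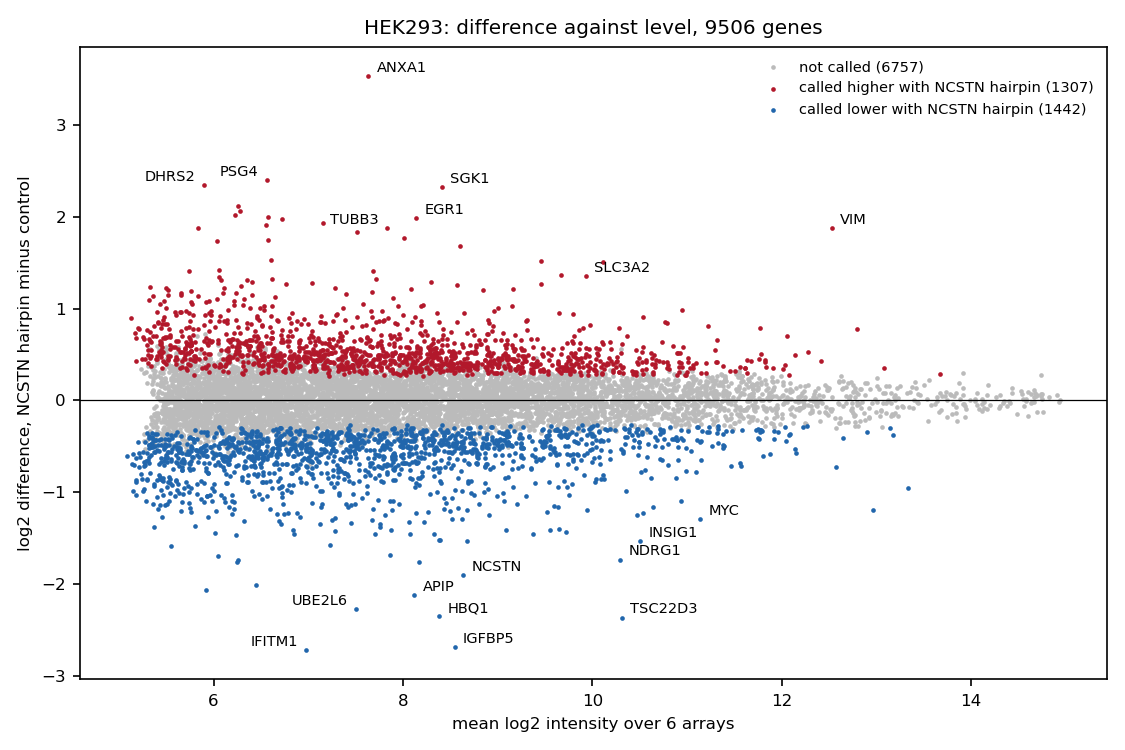
Each point is 1 of 9506 genes, with the mean log2 intensity over the 6 arrays on the horizontal axis and the log2 difference, NCSTN hairpin minus control, on the vertical axis. Genes called higher (1307) are red, genes called lower (1442) blue and the rest grey, and called genes lie among dim and bright genes alike, with ANXA1 the highest point.

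The largest rise was that of ANXA1, an annexin that binds phospholipids and is known as a glucocorticoid-induced mediator. ANXA1 stood at 9.38, 9.36 and 9.46 on the NCSTN-hairpin arrays, against 5.79, 5.69 and 6.11 on the control arrays. It rose by 3.53 (SE 0.12, adjusted p = 8.54e-07), an 11.6-fold difference, and the groups lay far apart. SGK1, a serum- and glucocorticoid-regulated kinase, stood at 9.65, 9.48 and 9.58 on the NCSTN-hairpin arrays, against 7.44, 7.30 and 7.02 on the control arrays and rose by 2.32 (SE 0.121, adjusted p = 8.64e-06). The other 2 probes of SGK1 gave 2.29 and 2.37. EGR1, an immediate early zinc finger transcription factor, stood at 9.01, 9.17 and 9.22 on the NCSTN-hairpin arrays, against 6.99, 7.28 and 7.18 on the control arrays and rose by 1.99 (SE 0.11, adjusted p = 9.37e-06). RASD1, a Ras-related protein induced by dexamethasone, rose by 1.93 (SE 0.0938, adjusted p = 6.33e-06). The stress genes GADD45B and GADD45G moved with them. GADD45B rose by 1.77 (SE 0.14, adjusted p = 6.22e-05), and GADD45G, detected on 3 of 3 NCSTN-hairpin arrays and 2 of 3 control arrays, was at least 3.90-fold higher (adjusted p = 0.00011). ETV5, a transcription factor of the PEA3 group, was detected on 3 of 3 NCSTN-hairpin arrays and 0 of 3 control arrays and was at least 3.96-fold higher (adjusted p = 6.33e-06).

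Several of the strongest rises were of genes best known from neurons or from the cytoskeleton. VGF, a neuropeptide precursor, stood at 7.76, 7.72 and 7.64 on the NCSTN-hairpin arrays, against 5.84, 5.70 and 5.67 on the control arrays and rose by 1.97 (SE 0.0949, adjusted p = 6.33e-06). TUBB3, the neuronal class of beta-tubulin, stood at 8.72, 8.84 and 8.74 on the NCSTN-hairpin arrays, against 6.84, 7.01 and 6.82 on the control arrays and rose by 1.88 (SE 0.0968, adjusted p = 8.38e-06). VIM, the intermediate filament protein vimentin, was already abundant in control cells. VIM stood at 13.34, 13.55 and 13.51 on the NCSTN-hairpin arrays, against 11.48, 11.69 and 11.59 on the control arrays and rose by 1.88 (SE 0.104, adjusted p = 9.37e-06), and its second probe gave 1.98. All 3 genes had groups that did not overlap. NPTX2, a neuronal pentraxin, rose by 1.68 (SE 0.117, adjusted p = 3.62e-05), and the galanin receptor GALR2, detected on 3 of 3 NCSTN-hairpin arrays and 1 of 3 control arrays, was at least 3.52-fold higher (adjusted p = 4.44e-05). The protocadherins PCDHB2 and PCDH7 were higher by 1.53 and 1.52, and TMOD1, which caps the pointed end of actin filaments, by 1.41. DYNLRB1, a light chain of dynein, rose by 1.51, with the other 3 probes between 1.48 and 1.55.

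The remaining genes of the 25 largest rises hold secreted, germline and histone genes. EMILIN2, a matrix glycoprotein, rose by 1.91 (SE 0.101, adjusted p = 9.17e-06). VASN, a membrane protein that binds TGF-beta, was detected on 3 of 3 NCSTN-hairpin arrays and 0 of 3 control arrays and was at least 2.96-fold higher (adjusted p = 3.03e-05). PSG4, a pregnancy-specific glycoprotein, was at least 4.79-fold higher (adjusted p = 6.22e-05), and DHRS2, a short-chain dehydrogenase, was at least 3.32-fold higher (adjusted p = 9.37e-06). VCX3A and VCX, germline genes of the X chromosome, were at least 3.82-fold and at least 2.71-fold higher. The phospholipase PLA2G4C was at least 2.63-fold higher, and the histone genes H2BC5 and H4C8 rose by 1.84 and 1.75. The VCX, PSG and histone genes have near-identical copies, so a probe may read more than 1 of them. Of the control arrays, PSG4, VCX3A and GALR2 were detected on 1, DHRS2, VCX, ETV5 and VASN on 0, and GADD45G and PLA2G4C on 2.

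Among the genes that fell, IGFBP5, a secreted binding protein of insulin-like growth factors, had the largest difference with full detection. IGFBP5 stood at 7.17, 7.27 and 7.17 on the NCSTN-hairpin arrays, against 9.85, 9.90 and 9.91 on the control arrays and fell by 2.68 (SE 0.0894, adjusted p = 8.54e-07), and its second probe gave -2.56. TSC22D3, which encodes the glucocorticoid-induced leucine zipper protein, stood at 9.06, 9.17 and 9.15 on the NCSTN-hairpin arrays, against 11.59, 11.52 and 11.37 on the control arrays and fell by 2.36 (SE 0.0983, adjusted p = 2.67e-06). Its other 2 probes gave -2.53 and -2.53, the first of them detected on 0 of 3 NCSTN-hairpin arrays, so that its value is no exact difference. HBQ1, the theta-1 globin, stood at 7.30, 7.11 and 7.21 on the NCSTN-hairpin arrays, against 9.55, 9.51 and 9.61 on the control arrays and fell by 2.35 (SE 0.0948, adjusted p = 2.66e-06). None of these 3 had overlapping groups. APIP, an enzyme of methionine salvage, stood at 6.78, 6.99 and 7.41 on the NCSTN-hairpin arrays, against 9.13, 9.15 and 9.25 on the control arrays and fell by 2.12 (SE 0.152, adjusted p = 4.01e-05), with -2.02 at its second probe.

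Adhesion and signalling genes were also among the 25 largest falls. CDH1, E-cadherin, was detected on 0 of 3 NCSTN-hairpin arrays and 3 of 3 control arrays and was at least 3.04-fold lower (adjusted p = 9.37e-06). NOTCH3, a receptor cut by gamma-secretase, was detected on 1 of 3 NCSTN-hairpin arrays and 3 of 3 control arrays and was at least 2.85-fold lower (adjusted p = 5.17e-05). NDRG1, a stress- and hypoxia-responsive gene, stood at 9.20, 9.54 and 9.54 on the NCSTN-hairpin arrays, against 11.29, 11.07 and 11.11 on the control arrays and fell by 1.73 (SE 0.122, adjusted p = 3.62e-05). The membrane protein genes PALM, CTXN1 and ASIC1, the last a proton-gated sodium channel, fell (-1.52, -1.46 and -1.45). The glycosyltransferase GCNT2 fell by 1.47, and MGAT3, which adds the bisecting residue of N-glycans, was at least 2.00-fold lower and was detected on no NCSTN-hairpin array. The kinase SBK1 and the mitotic protein gene AUNIP fell (-1.57 and -1.45), while the zinc finger gene ZNF467 was at least 3.06-fold lower.

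Metabolic enzymes made up a further share of these 25. BCAT1, the cytosolic aminotransferase of branched-chain amino acids, stood at 7.56, 7.11 and 7.22 on the NCSTN-hairpin arrays, against 9.16, 8.93 and 9.07 on the control arrays and fell by 1.76 (SE 0.131, adjusted p = 5.27e-05). BCKDHA, a subunit of the dehydrogenase that takes the next step of branched-chain amino acid breakdown, fell by 1.52 (SE 0.0992, adjusted p = 3.02e-05). ME2, the mitochondrial malic enzyme, fell by 1.53 (SE 0.105, adjusted p = 3.62e-05), and CPS1, the first enzyme of the urea cycle, was detected on 2 of 3 NCSTN-hairpin arrays and 3 of 3 control arrays and was at least 3.06-fold lower (adjusted p = 0.000155). INSIG1, a brake on sterol synthesis that is itself induced when sterols are scarce, stood at 9.83, 9.63 and 9.74 on the NCSTN-hairpin arrays, against 11.34, 11.10 and 11.37 on the control arrays. It fell by 1.53 (SE 0.108, adjusted p = 3.64e-05), with no overlap between the groups. IFITM1, UBE2L6, IFIT1 and IFITM2 complete the set and are described with the interferon genes. Of the 50 genes with the largest changes, 16 carried a bound in place of a fold, 9 upward and 7 downward. For 11 of the 50 several probes were kept, and every probe was called in the same direction in all 11. All 50 kept their call under every alternative setting tried.

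**Figure D2:**
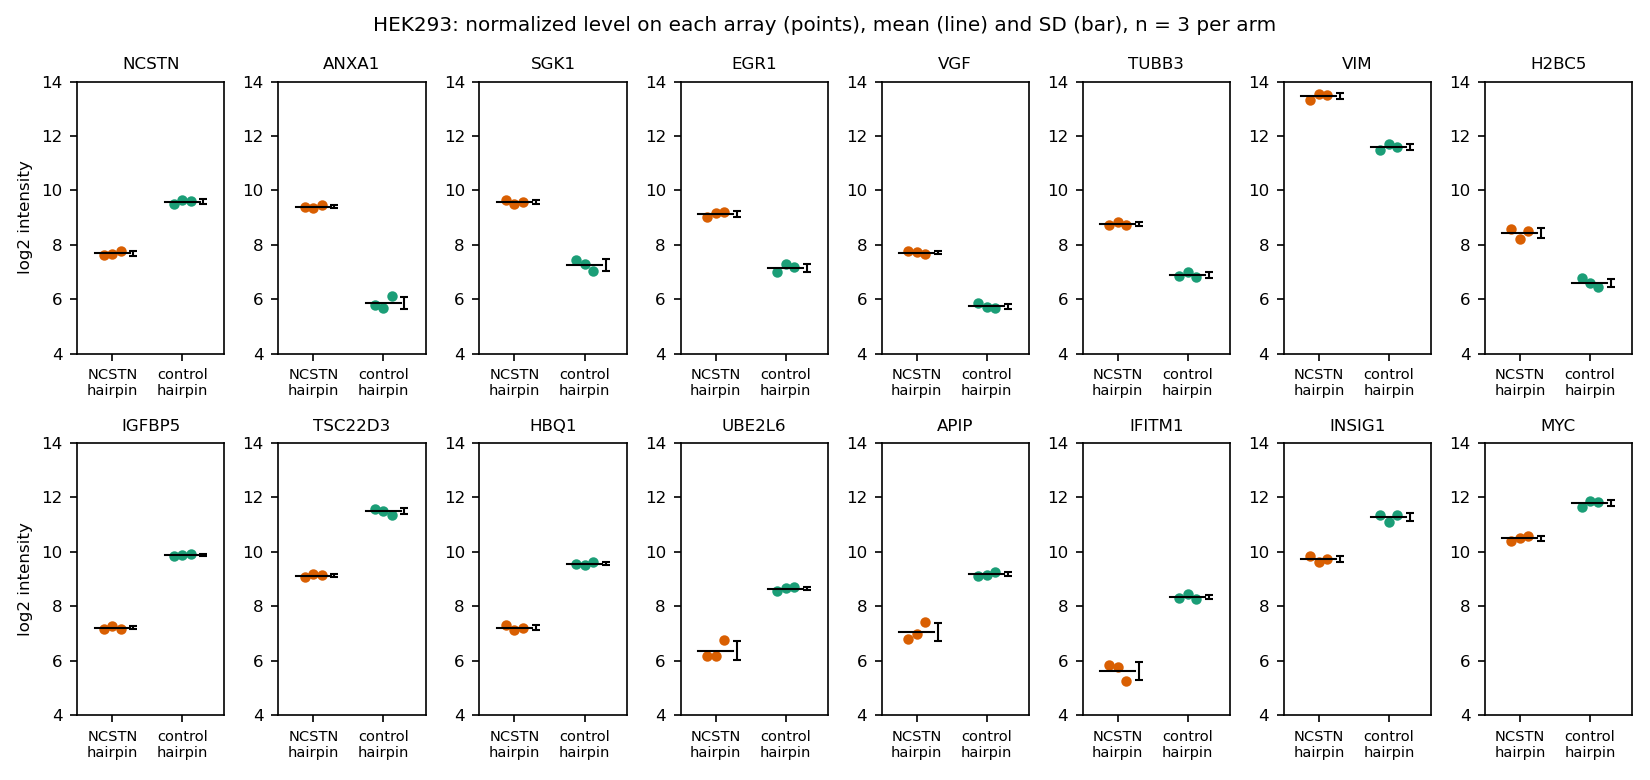
The normalized log2 intensity of 16 genes on each array is shown as points, with the mean as a line and the SD as a bar (n = 3 per group), the NCSTN hairpin left and the control hairpin right. The top row holds NCSTN and 7 genes that were higher, the bottom row 8 that were lower, and in no panel do the groups overlap.

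The genes were then grouped by function into lists of named pathways and families, counted against the 13.7% of all genes called higher and the 15.2% called lower. Lists overlap, and a gene is counted in each list that holds it. In these bulk samples fewer cells of a kind and less RNA per cell cannot be told apart. The plot of called shares by list runs between the annexins, with 4 of 7 called higher and 0 lower, and fatty acid synthesis, with 0 of 22 called higher and 11 lower.

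**Figure D3:**
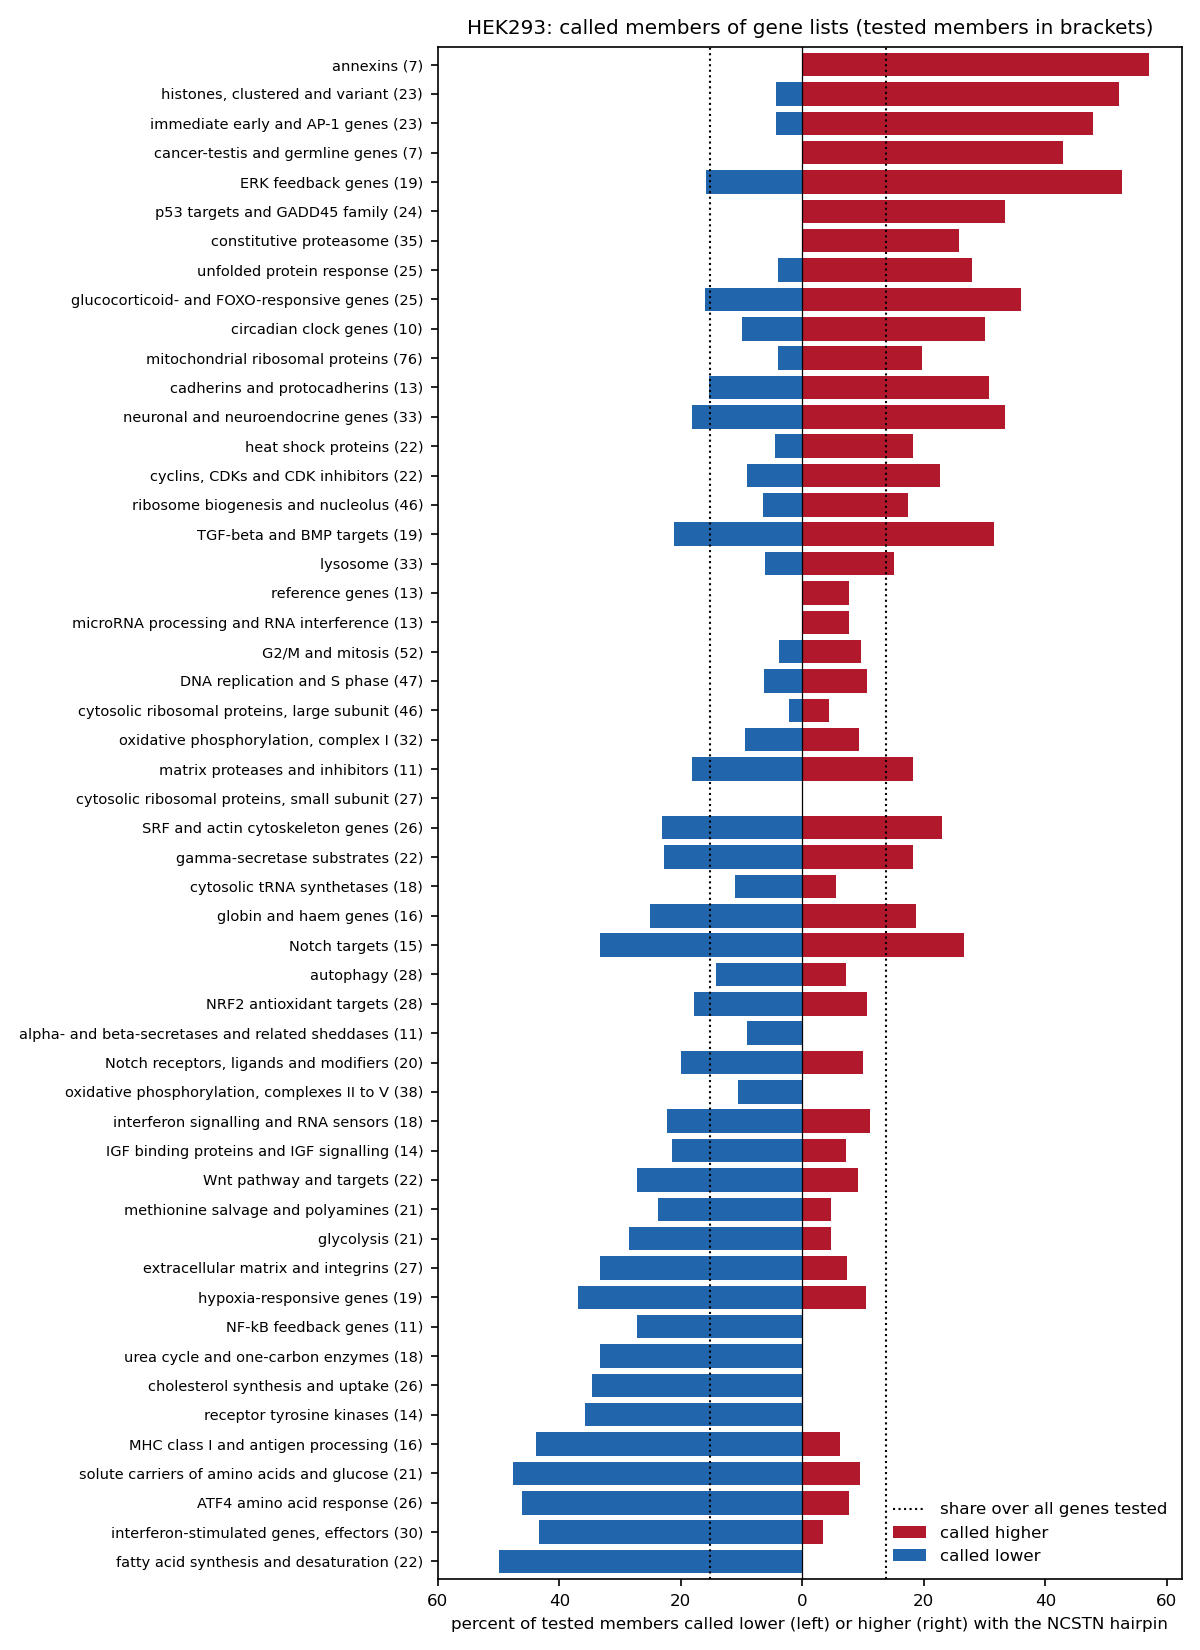
Bars give the percent of tested members called lower (left, blue) and higher (right, red) with the NCSTN hairpin in 52 gene lists, with the number of tested members in brackets and dotted lines at the shares over all genes, 15.2% lower and 13.7% higher. Lists with more calls upward stand at the top and lists with more calls downward at the bottom.

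Substrates of gamma-secretase did not share a direction. Of 22 tested, 4 were called higher and 5 lower, and the median difference was 0.1655 against 0.0061 over all genes. Besides CDH1, the chemokine CXCL16, which is made as a membrane protein, fell by 1.18, and the lipoprotein receptor LRP8 fell by 0.81. The hyaluronan receptor CD44 was at least 1.61-fold higher and was detected on 3 of 3 NCSTN-hairpin arrays and 0 of 3 control arrays, and the ephrin EFNB1 was at least 1.36-fold higher. The syndecan SDC1 fell by 0.41. APP, the amyloid precursor, and CDH2, N-cadherin, were not called, with 0.22 (adjusted p = 0.404) and -0.09 (adjusted p = 0.558). These are the brightest probes, and of the other 2 probes of APP 1 was called higher at 0.39 (adjusted p = 0.0445) and 1 stood at 0.41, not called. Of 11 sheddases and related proteases tested, only RHBDF1, an inactive rhomboid that guides the sheddase ADAM17, was called, and it fell by 0.74. ADAM15 was not called by its brightest probe, at -0.12, while 1 of its other 3 probes was called lower at -0.48 (adjusted p = 0.0274) and the remaining ones stood at -0.44 and -0.04. With median scaling 1 substrate was called higher and 3 lower, and in each fit without 1 array, replicate 3 of the NCSTN group apart, 2 were called higher.

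Notch genes changed in both directions. Of 20 receptors, ligands and modifiers tested, 2 were called higher and 4 lower, which is 30.0% against 28.9% of all genes. Beside NOTCH3, the ligand JAG2 fell by 1.33 (SE 0.0871, adjusted p = 3.02e-05). Its second probe, detected on 1 of 3 NCSTN-hairpin arrays, gave -0.98. The ligand JAG1 fell by 0.41, and RFNG, which extends sugars on the receptors, was at least 1.36-fold lower. FBXW7, the ubiquitin ligase subunit that marks the cut receptor for destruction, rose by 0.44, and DTX3, a Deltex ubiquitin ligase, by 0.30. Of 15 Notch target genes, 4 were called higher and 5 lower. HES4 and HES6 fell (-0.53 and -0.63), and MYC, which several other pathways also control, fell by 1.29 (SE 0.101, adjusted p = 6.22e-05). The inhibitors of differentiation ID1 and ID3, also known as targets of bone morphogenetic proteins, rose by 1.12 and 0.95, and the cyclin-dependent kinase inhibitor CDKN1A by 0.86. HES1, HEY1, HEY2 and HEYL were not called, with 0.07, -0.03, -0.01 and 0.25 (adjusted p = 0.732, 0.838, 0.95 and 0.153). With median scaling, 3 of the targets were called higher and 2 lower, and of the receptors, ligands and modifiers 0 and 3.

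The RBPJ letters GTGGGAA were searched on both strands of the 300 bases from 250 before to 50 after the start of each gene. They occurred in 4 of the 11 Notch targets with a promoter in the RefSeq table (HES1, HES4, HEY2 and HEYL). Among all tested genes with a promoter 7.65% held them, and 6.25% of all single promoters of that table did. HES4 is the only called gene of the 4, and its promoter is shown with the match in capitals (GRCh38.p14, minus strand, chr1:1000048-1000347).
HES4: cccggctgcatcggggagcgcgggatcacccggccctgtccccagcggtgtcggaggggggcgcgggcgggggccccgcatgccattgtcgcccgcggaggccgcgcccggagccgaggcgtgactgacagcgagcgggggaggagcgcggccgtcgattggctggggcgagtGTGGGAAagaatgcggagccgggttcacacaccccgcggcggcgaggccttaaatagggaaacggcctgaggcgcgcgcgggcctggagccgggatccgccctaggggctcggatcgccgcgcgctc

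Genes induced by growth factor signalling were called higher more often than lower. Of 19 genes that ERK signalling is known to induce, 10 were called higher and 3 lower, with a median of 0.4027, and of 23 immediate early genes 11 were called higher and 1 lower, with a median of 0.2837. Both counts upward stand against 13.7% over all genes. Of the ERK genes called higher, 3 passed the detection filter only through the NCSTN group. Among the 16 ERK genes detected on all 6 arrays, 7 were called higher and 3 lower. Among the 22 immediate early genes so detected, 10 were called higher and 1 lower. ETV4, the close relative of ETV5, was at least 1.18-fold higher. DUSP5, a phosphatase of ERK, stood at 7.52, 7.51 and 7.78 on the NCSTN-hairpin arrays, against 6.57, 6.89 and 6.79 on the control arrays and rose by 0.85 (SE 0.12, adjusted p = 0.00124), and DUSP6, a second one, was at least 1.71-fold higher. DUSP1 rose by 0.47. Over the whole dual-specificity phosphatase family, 7 of 15 were called higher and 0 lower, and with median scaling 2 were. FOS, a subunit of AP-1, was detected on 3 of 3 NCSTN-hairpin arrays and 0 of 3 control arrays and was at least 1.71-fold higher (adjusted p = 0.00146), and FOSB rose by 1.17 (SE 0.16, adjusted p = 0.00105). The secreted matricellular proteins CCN1 and CCN2 rose by 0.75 and 0.66, and ZFP36, which speeds the decay of AU-rich messages, by 0.67. IER3 and KLF2 were not called (-0.15 and 0.28). The genes that went the other way were MYC, HMGA1, a chromatin protein that fell by 0.91, CCND1 (-0.37) and the transcription factor SRF (-0.56), the last 2 named after their values were seen. With median scaling, 6 ERK genes and 7 immediate early genes were called higher.

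EGR1 had the largest rise of the immediate early genes tested, and VGF is one of the neuronal genes that rose. Their promoters are shown for the elements they are known for. In EGR1, capitals mark 2 matches to the CArG element, the binding site of SRF (GRCh38.p14, plus strand, chr5:138465229-138465528). The element was found, on both strands, in 2 of 19 immediate early genes with a promoter, EGR1 and SRF. Among all tested genes with a promoter 1.62% held it, and 1.29% of all single promoters did. In VGF, capitals mark the cyclic AMP response element TGACGTCA (minus strand, chr7:101165520-101165819). It was present in 3 of 27 neuronal genes with a promoter (CHGA, TUBB2A and VGF). Among all tested genes with a promoter 4.13% held it, and 1.85% of all single promoters did.
EGR1: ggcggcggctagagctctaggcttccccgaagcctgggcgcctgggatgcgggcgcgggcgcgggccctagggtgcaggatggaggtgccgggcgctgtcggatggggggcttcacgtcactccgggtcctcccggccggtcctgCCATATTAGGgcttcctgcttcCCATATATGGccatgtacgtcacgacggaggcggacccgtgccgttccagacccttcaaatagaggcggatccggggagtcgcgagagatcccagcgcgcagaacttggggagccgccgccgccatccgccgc
VGF: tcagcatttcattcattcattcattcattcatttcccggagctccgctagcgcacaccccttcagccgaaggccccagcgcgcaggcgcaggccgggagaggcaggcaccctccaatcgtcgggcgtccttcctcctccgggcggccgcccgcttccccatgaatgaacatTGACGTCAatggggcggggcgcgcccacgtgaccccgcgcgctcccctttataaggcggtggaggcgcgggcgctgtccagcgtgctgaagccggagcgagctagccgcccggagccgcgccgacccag

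Receptor tyrosine kinases lay on the other side. Of 14 tested, 0 were called higher and 5 lower, with a median of -0.3428. ERBB3 fell by 0.87 (SE 0.13, adjusted p = 0.0016), as did its partner ERBB2 (-0.68), the phosphatidylserine receptor MERTK (-0.74), the fibroblast growth factor receptor FGFR4 (-0.61) and the ephrin receptor EPHB4 (-0.38). FGFR3 and MET were not called (0.29 and -0.01). With median scaling 3 receptors were called, all lower. Genes known to respond to glucocorticoids or to FOXO factors split, with 9 of 25 called higher and 4 lower. SGK1, RASD1 and GADD45B were among the 9, while TSC22D3, a widely used glucocorticoid target, and KLF9 (-0.90) fell, and CITED2 rose by 0.71. With median scaling 4 of the 25 were called higher and 3 lower. The other annexins differed by less at their brightest probes, with ANXA2 at 0.54, ANXA3 at 0.46 and ANXA7 at 0.32, all called, and ANXA5 at 0.22, ANXA6 at -0.03 and ANXA11 at -0.03, not called. The other 2 probes of ANXA2 were called higher too, at 1.69 (adjusted p = 4.98e-05) and 0.57, the latter detected on 2 of 3 control arrays. With median scaling ANXA1 was the only annexin called, and without replicate 3 of the NCSTN group 2 annexins were.

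Interferon-stimulated genes fell with the NCSTN hairpin more often than they rose. Of 30 effectors tested, 13 were called lower and 1 higher (ISG20, at 0.39, named after its value was seen), against 15.2% and 13.7% of all genes, and the median difference was -0.2997. For 6 of the 13 the probe missed detection on 1 or more arrays of the NCSTN group. IFITM1, a membrane protein that blocks virus entry, stood at 5.82, 5.78 and 5.25 on the NCSTN-hairpin arrays, against 8.30, 8.43 and 8.27 on the control arrays. It was detected on 2 of 3 NCSTN-hairpin arrays and 3 of 3 control arrays and was at least 6.24-fold lower (adjusted p = 9.60e-06). UBE2L6, the conjugating enzyme of the ubiquitin-like ISG15, stood at 6.16, 6.18 and 6.77 on the NCSTN-hairpin arrays, against 8.57, 8.66 and 8.70 on the control arrays. It fell by 2.28 (SE 0.158, adjusted p = 3.62e-05). Its second probe, detected on 1 of 3 NCSTN-hairpin arrays, gave -1.05. IFIT1, which binds viral RNA ends, was detected on 2 of 3 NCSTN-hairpin arrays and 3 of 3 control arrays and was at least 3.70-fold lower (adjusted p = 3.62e-05). IFITM2 stood at 7.14, 6.75 and 7.18 on the NCSTN-hairpin arrays, against 8.85, 8.79 and 8.47 on the control arrays and fell by 1.68 (SE 0.146, adjusted p = 9.42e-05), and IFI6, a mitochondrial interferon-induced protein, fell by 1.16 (SE 0.11, adjusted p = 0.00015). In all 5 the groups did not overlap. BST2, the tether of budding virus particles, was detected on 0 of 3 NCSTN-hairpin arrays and 3 of 3 control arrays and was at least 1.49-fold lower. ISG15 itself fell by 0.52 (adjusted p = 0.0138), chosen after its value was seen. IFITM1, IFITM2 and IFITM3 are close paralogs, and their probes may read more than 1 of them. EIF2AK2 and ADAR, a kinase and an editing enzyme of double-stranded RNA, were not called (-0.09 and -0.08). With median scaling 8 effectors were called lower and 0 higher.

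Genes that sense RNA or carry the interferon signal showed no common direction, with 2 of 18 called higher, 4 lower and a median of 0.015. Without replicate 1 of the NCSTN group or replicate 1 of the control group 1 was called lower, and without replicate 3 of either group 2 were. The receptor chains IFNAR1 and IFNGR1 rose by 0.65 and 0.40, while IRF9, the DNA-binding part of the type I interferon complex, fell by 0.42, IFNGR2 fell by 0.38, and the RNA sensor IFIH1 was at least 1.45-fold lower. TYK2 and TBK1 were not called (-0.17 and 0.16). In antigen presentation, 7 of 16 were called lower and 1 higher, with a median of -0.2972. TAP1, a subunit of the peptide transporter, stood at 8.42, 8.38 and 8.28 on the NCSTN-hairpin arrays, against 9.36, 9.34 and 9.37 on the control arrays and fell by 1.00 (SE 0.0898, adjusted p = 0.000117). PSME1 and PSME2, which together form a proteasome activator, fell (-0.86 and -0.53), and the butyrophilins BTN3A2, BTN3A3 and BTN3A1, near-identical neighbours, were lower, with BTN3A2 at -1.28, BTN3A3 at least 1.32-fold and BTN3A1 at least 1.43-fold. The class I genes tested were not called at their brightest probes, with B2M at -0.31 (adjusted p = 0.0737) and HLA-E at 0.00, while the second probe of B2M was called lower at -0.44 (adjusted p = 0.017). CALR, a chaperone of the endoplasmic reticulum, was the 1 called higher (0.40, named after its value was seen). With median scaling 5 antigen presentation genes were called, all lower, and 1 signalling gene in each direction.

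The interferon response element, spelled GAAA, any 2 bases and GAAA, was searched on both strands of the same window. It was found in 18 of the 26 effectors with a promoter (69.2%). Among all tested genes with a promoter 3.64% held it, and 3.57% of all single promoters did. Among called effectors 9 of 12 held it, ISG20, the 1 that rose, included. The promoters of IFIT1, IFITM1 and IFI6 are shown with the element in capitals, as well-known genes with large falls among the 18 holders. UBE2L6 and IFITM2, which fell further than IFI6, were not among the 18. IFIT1 holds 2 matches (GRCh38.p14, plus strand, chr10:89392373-89392672), IFITM1 holds 2 (plus strand, chr11:313790-314089) and IFI6 holds 3 (minus strand, chr1:27672143-27672442).
IFIT1: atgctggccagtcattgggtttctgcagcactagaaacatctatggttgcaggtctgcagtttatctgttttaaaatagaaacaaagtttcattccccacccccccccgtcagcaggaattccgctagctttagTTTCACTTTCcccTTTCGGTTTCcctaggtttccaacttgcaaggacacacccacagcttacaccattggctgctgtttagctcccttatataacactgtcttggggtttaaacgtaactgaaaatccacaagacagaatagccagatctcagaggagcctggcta
IFITM1: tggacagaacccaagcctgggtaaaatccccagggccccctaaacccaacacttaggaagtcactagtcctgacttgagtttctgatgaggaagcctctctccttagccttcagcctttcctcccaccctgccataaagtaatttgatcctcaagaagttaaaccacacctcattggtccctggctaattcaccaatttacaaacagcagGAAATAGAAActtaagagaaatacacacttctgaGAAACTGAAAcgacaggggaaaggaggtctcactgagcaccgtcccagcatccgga
IFI6: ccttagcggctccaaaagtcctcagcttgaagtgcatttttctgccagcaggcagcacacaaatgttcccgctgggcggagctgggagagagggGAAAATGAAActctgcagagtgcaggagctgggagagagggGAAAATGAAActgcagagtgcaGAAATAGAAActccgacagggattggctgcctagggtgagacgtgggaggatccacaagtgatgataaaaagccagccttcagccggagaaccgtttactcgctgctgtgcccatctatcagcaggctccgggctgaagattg

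Genes of lipid synthesis were called lower or not at all. Of 26 genes of cholesterol synthesis and uptake 9 were called lower, with a median of -0.3369, and of 22 genes of fatty acid synthesis and desaturation 11 were, with a median of -0.3972. Together 20 of 48 were called lower, against 15.2% of all genes. HMGCS1, which makes the precursor of mevalonate, averaged 9.02 ± 0.039 with the NCSTN hairpin and 10.17 ± 0.183 with the control hairpin (SD, n = 3 each) and fell by 1.15 (SE 0.111, adjusted p = 0.000159). SQLE, the squalene oxidase, stood at 9.80, 10.05 and 9.71 on the NCSTN-hairpin arrays, against 11.15, 10.90 and 11.25 on the control arrays and fell by 1.24 (SE 0.127, adjusted p = 0.000212), with -1.37 at its second probe. The groups did not overlap for either. MVD, the decarboxylase at the end of the mevalonate branch, was at least 1.75-fold lower, and NSDHL and IDI1, both enzymes of later steps, fell (-0.81 and -0.73). The transcription factor gene SREBF1 was not called (0.15, chosen after its value was seen), nor were EBP (-0.34) and ACAT2 (-0.13). The sterol element TCACNCCAC was found, on both strands of the same window, in 0 of 23 cholesterol genes with a promoter. Among all tested genes with a promoter 1.39% held it, and 1.13% of all single promoters did.

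On the fatty acid side, MID1IP1, a protein that drives polymerisation of acetyl-CoA carboxylase, fell by 1.40 (SE 0.131, adjusted p = 0.000142), and FADS1, the delta-5 desaturase, fell by 1.23 (SE 0.098, adjusted p = 6.36e-05). The acetyl-CoA synthetases ACSS1 and ACSS2 fell (-0.79 and -0.58), as did the stearoyl desaturase SCD (-0.60) and the elongase ELOVL6 (-0.48). FASN, ACLY and ACACA, which carry out the central steps, fell (-0.42, -0.43 and -0.40), named after their values were seen. FABP5 and ELOVL5 were not called (0.24 and -0.03). With median scaling 6 cholesterol genes and 3 fatty acid genes were called, all lower.

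**Figure D4:**
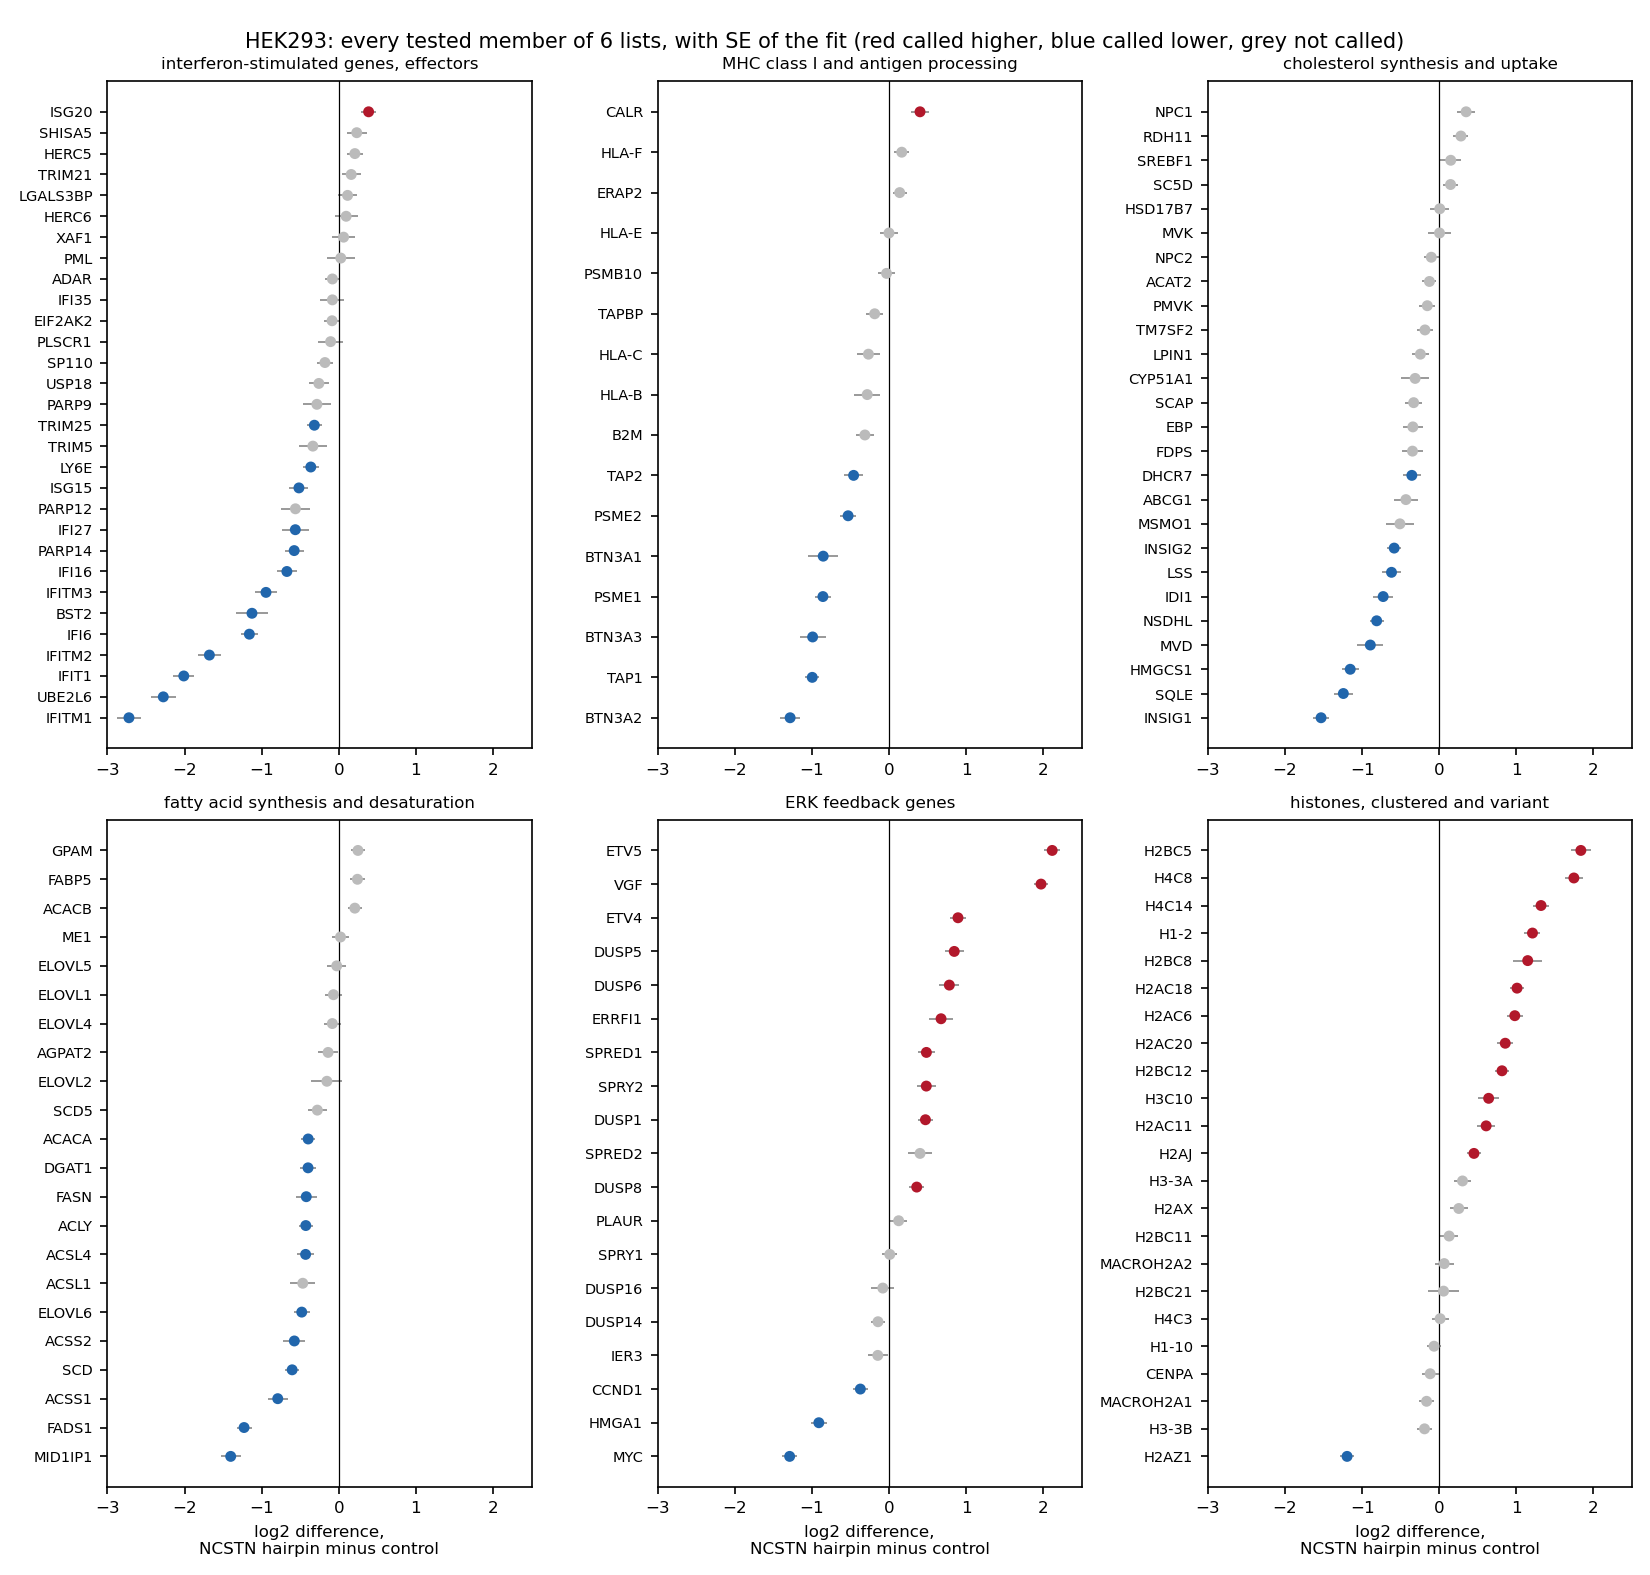
Every tested member of 6 lists is plotted as its log2 difference, NCSTN hairpin minus control, with the SE of the fit as a bar (red called higher, blue called lower, grey not called). Lower calls prevail in the interferon, antigen presentation, cholesterol and fatty acid panels, and higher calls in the panels of ERK feedback genes and histones.

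Histone genes were called higher more often than lower. Of 23 tested, 12 were called higher and 1 lower, with a median of 0.4504. Of the 12, 3 passed the detection filter only through the NCSTN group. Among the 20 detected on all 6 arrays, 9 were called higher and 1 lower. H2BC5 stood at 8.58, 8.22 and 8.52 on the NCSTN-hairpin arrays, against 6.77, 6.58 and 6.46 on the control arrays and rose by 1.84 (SE 0.127, adjusted p = 3.62e-05), with 1.21 at its second probe. H4C8 stood at 7.36, 7.66 and 7.32 on the NCSTN-hairpin arrays, against 5.66, 5.84 and 5.60 on the control arrays and rose by 1.75 (SE 0.121, adjusted p = 3.62e-05). H4C14 rose by 1.32 and the linker histone H1-2 by 1.21, and H2BC8 was at least 1.86-fold higher. These are clustered histone genes, whose usual messages end in a stem-loop without a poly(A) tail, and several of them are near-identical copies of each other. The 1 that fell was H2AZ1, the replacement variant H2A.Z, which stood at 12.45, 12.25 and 12.40 on the NCSTN-hairpin arrays, against 13.54, 13.56 and 13.59 on the control arrays and fell by 1.20 (SE 0.0945, adjusted p = 6.22e-05). H3-3A, a replacement histone too, was not called (0.30), and neither was H4C3 (0.01). With median scaling 10 histone genes were called higher and 1 lower.

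Cell cycle genes gave few calls. Of 52 genes of G2 and mitosis, 5 were called higher and 2 lower, and of 47 replication genes 5 and 3, so that 10 of 99 were called higher and 5 lower against 13.7% and 15.2% of all genes. The kinetochore subunit SPC24 rose by 0.77 and survivin, BIRC5, by 0.63, while the chromokinesin KIF4A fell by 0.46. RRM2, the small subunit of ribonucleotide reductase, was the strongest of the replication genes. RRM2 stood at 7.81, 8.20 and 7.94 on the NCSTN-hairpin arrays, against 6.86, 6.89 and 6.72 on the control arrays and rose by 1.16 (SE 0.119, adjusted p = 0.000212). The polymerase subunits POLA1 and POLD2 fell (-0.60 and -0.49), and MCM3 and MCM7 were not called (-0.13 and 0.15). Of 24 p53 targets and GADD45 genes, 8 were called higher and 0 lower, with a median of 0.2523. PERP, a desmosomal protein, rose by 1.04, TP53I3 by 0.86 and the pore-forming protein gene BAX by 0.51, while CCNG1 and TNFRSF10B were not called (0.05 and 0.29). Without replicate 2 or replicate 3 of the NCSTN group 1 replication gene and 3 mitotic genes were called higher, and with median scaling 1 replication gene, 2 mitotic genes and 5 p53 or GADD45 genes were called, all higher.

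Zinc finger genes on chromosome 19 were called higher far more often than lower. The human genome carries a large share of its KRAB zinc finger repressors in clusters on this chromosome. Chromosomes were taken from the RefSeq annotation of GRCh38.p14. Of 268 ZNF genes tested, 66 were called higher and 22 lower. On chromosome 19, 44 of 121 were called higher (36.4%) and 4 lower (3.31%), with a median of 0.2181. On other chromosomes, 22 of 147 were called higher and 18 lower, with a median of 0.0527. The other 524 genes of chromosome 19 did not share the direction, with 76 called higher and 114 lower and a median of -0.0244. The ZNF genes of chromosome 19 were dim, with a median level of 6.63 against 7.78 for all genes, and 59.5% of them lay among the dimmest 3169 genes, of which 428 were called higher and 525 lower. For the 96 detected on all 6 arrays, 28 were called higher and 3 lower. ZNF671 was at least 2.15-fold higher and was detected on 3 of 3 NCSTN-hairpin arrays and 0 of 3 control arrays. ZNF280C, on the X chromosome, fell by 1.33. With median scaling, 22 of the 121 were called higher and 2 lower. Probes of these genes may read more than 1 member, since the clusters arose by duplication.

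**Figure D5:**
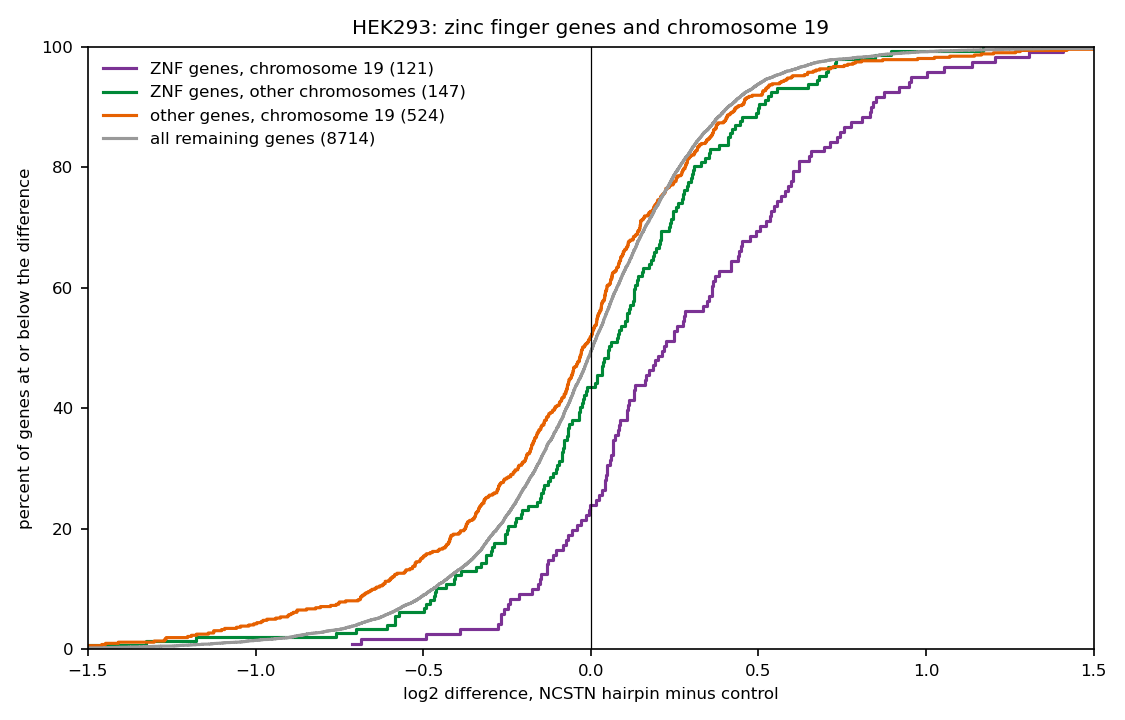
The curves give the percent of genes at or below each log2 difference, NCSTN hairpin minus control, for ZNF genes on chromosome 19 (121), ZNF genes on other chromosomes (147), other genes of chromosome 19 (524) and all remaining genes (8714). The curve of the ZNF genes on chromosome 19 lies to the right of the other 3 over most of its range.

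Small nucleolar RNAs of the SNORA group were called higher more often than lower. Of 40 SNORA genes 11 were called higher (27.5%) and 2 lower, with a median of 0.2132. For 7 of the called SNORA genes the probe missed detection on 1 or more arrays of the dimmer group. Those 7 passed the detection filter only through the group where they were higher. Of 42 SNORD genes 7 were called higher, 16.7% against 13.7% of all genes, and 3 lower, with a median of 0.123. SNORA24 and SNORA12, guides of pseudouridylation, rose by 0.70 and 0.67, and SNORD3C, a copy of U3, by 0.59. SNORD80 fell by 0.55. These RNAs lie within introns of host genes or have several copies, and their probes may read host transcripts. With median scaling, 3 SNORA genes and 0 SNORD genes were called higher. Among protein families of translation, calls were scarce, with 2 of 73 cytosolic ribosomal proteins called higher and 1 lower. RPL28 rose by 0.48 and RPL34 by 0.43, RPL13A fell by 0.29, and 0 of 27 small subunit proteins were called. Mitochondrial ribosomal proteins had 15 of 76 called higher and 3 lower, led by MRPL1 (0.86), MRPS11 (0.62) and MRPL15 (0.62). In oxidative phosphorylation 3 of 70 subunits were called higher and 7 lower, among them COX6A1 (-0.68) and SDHC (-0.50). The constitutive proteasome had 9 of 35 called higher and 0 lower, with PSMD8 at 0.64, ADRM1 at 0.62 and PSMD11 at 0.54. Without replicate 1 or replicate 3 of the NCSTN group, 8 mitochondrial ribosomal proteins and 5 proteasome genes were called higher, and without replicate 3 of that group 3 SNORD genes. With median scaling 3 mitochondrial ribosomal proteins and 2 proteasome genes were called, all higher, and 1 subunit of oxidative phosphorylation, which was lower.

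Genes of amino acid metabolism were called lower more often than higher, most clearly among targets of ATF4, the transcription factor of the amino acid response. Of 26 genes that ATF4 is known to control, 12 were called lower and 2 higher, with a median of -0.253. That is 53.8% called, against 28.9% of all genes. CBS, which condenses homocysteine with serine, stood at 9.07, 8.79 and 8.89 on the NCSTN-hairpin arrays, against 10.07, 10.21 and 10.13 on the control arrays and fell by 1.22 (SE 0.104, adjusted p = 8.72e-05). The cystathionine lyase CTH fell by 0.65, as did the serine enzymes SHMT2 (-0.78) and PSAT1 (-0.65) and the transporter SLC38A2 (-0.72). STC2, a secreted glycoprotein, fell by 1.01. SLC3A2, the heavy chain of amino acid exchangers, went the other way. SLC3A2 stood at 10.61, 10.70 and 10.51 on the NCSTN-hairpin arrays, against 9.36, 9.27 and 9.12 on the control arrays and rose by 1.35 (SE 0.103, adjusted p = 5.54e-05), with 1.68 at its second probe. PHGDH was not called (-0.24, adjusted p = 0.0718). With median scaling 5 of the 26 were called lower and 1 higher. In methionine salvage and polyamine metabolism 5 of 21 were called lower and 1 higher, a share of 28.6% that does not exceed the 28.9% of all genes. Beside APIP, the salvage enzymes MRI1 and ENOPH1, which act just before and just after it, fell (-0.54 and -1.04). ADI1, a further salvage enzyme named after its value was seen, stood the other way with the highest difference of the list, 0.50. SAT1, the acetyltransferase that starts polyamine breakdown, fell by 0.95, and SRM, spermidine synthase, rose by 0.37. In the urea cycle and one-carbon list 6 of 18 were called lower and 0 higher (33.3%, near the share of all genes), with a median of -0.0773. CTPS1 stood at -0.69 and ASS1 at -0.46. With median scaling 3 genes of each of these last lists were called, all lower.

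Of 21 glycolysis genes, the glucose transporters included, 1 was called higher and 6 lower, with a median of -0.0735. The share called was 33.3%, near the 28.9% of all genes. SLC2A3, a high-affinity glucose transporter, fell by 1.06 (SE 0.117, adjusted p = 0.00032), while SLC2A1 rose by 0.32. PFKFB4 and PFKFB3, which set the level of an activator of phosphofructokinase, fell (-1.10 and -0.51), although the second probe of PFKFB3 stood at 0.14 (adjusted p = 0.489), as did the phosphofructokinases PFKL (-0.46) and PFKP (-0.43). The abundant enzymes ENO1, GAPDH, LDHA and TPI1 were not called, with 0.05, 0.07, -0.10 and 0.19. Of 19 hypoxia-responsive genes 7 were called lower and 2 higher (47.4% called). NDRG1, CA12 (-0.74) and BNIP3 (-0.66) were lower, and ADM, the vasodilator peptide adrenomedullin, rose by 1.37 (SE 0.11, adjusted p = 6.74e-05). Of 28 antioxidant genes 3 were called higher and 5 lower, a share of 28.6% that does not exceed the 28.9% of all genes. The glutathione transferases GSTM1 and GSTM2, near-identical neighbours, fell (-1.38 and -1.25), while SQSTM1, an autophagy receptor, rose by 0.79, the ferritin light chain FTL by 0.78 and haem oxygenase, HMOX1, by 0.62. With median scaling 2 glycolytic genes were called, both lower, and of the hypoxia genes 1 was called higher and 4 lower, and of the antioxidant genes 2 and 2. Without replicate 1 of the control group 3 antioxidant genes were called lower.

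Solute carriers as a family had 27 of 173 called higher and 45 lower, which is 41.6% called against 28.9% of all genes. Without replicate 2 of the NCSTN group 14 were called higher, without its replicate 3 29 were called lower, and with median scaling 6 and 17 were. In the list of amino acid and glucose carriers, 10 of 21 were called lower and 2 higher. For 3 of the 10 the probe missed detection on 1 or more arrays of the NCSTN group. Without replicate 3 of the NCSTN group or replicate 2 of the control group 6 were called lower. The glucose carrier SLC2A12 and the glutamate carrier SLC1A1 were at least 1.91-fold and at least 1.61-fold lower, and SLC2A6 fell by 0.70. SLC1A5 and SLC7A5, the light chain that pairs with SLC3A2, were not called (0.38 and 0.12). Of the unfolded protein response, 7 of 25 were called higher and 1 lower (32.0% called, near the share of all genes). PPP1R15A, which directs dephosphorylation of eIF2-alpha, stood at 9.38, 9.55 and 9.41 on the NCSTN-hairpin arrays, against 8.24, 8.30 and 8.19 on the control arrays and rose by 1.20 (SE 0.0944, adjusted p = 6.22e-05), DDIT3 rose by 0.48, and DNAJC3 was at least 1.43-fold higher. HSP90B1 and MANF were not called (-0.27 and 0.04). Of 22 heat shock proteins 4 were called higher and 1 lower (22.7% called, below the share of all genes). HSPB1, a small heat shock protein, fell by 0.77, while HSPA8 and DNAJB1 rose by 0.53 and 0.54. With median scaling 2 genes of the unfolded protein response were called, both higher, and without replicate 2 of the NCSTN group or replicate 3 of the control group 3 were called higher. With median scaling 0 heat shock proteins were called higher, and without replicate 1 or 2 of the NCSTN group or replicate 1 of the control group 2 were.

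Neuronal genes changed in both directions, with 11 of 33 called higher and 6 lower. Among the 24 detected on all 6 arrays, 8 were called higher and 3 lower. Beyond VGF, TUBB3, NPTX2 and GALR2, NCAM1, a neural adhesion molecule, rose by 1.00 and the intermediate filament gene INA by 0.95, chromogranin A, CHGA, was at least 1.72-fold higher, and the beta-tubulin TUBB4A was at least 2.52-fold lower. STMN3 and the synaptic vesicle protein SYT1 fell (-1.24 and -0.77). INA and VIM belong to the HEK293 marker list, of which 3 of 11 tested members were called, with a median of -0.0801. The summed linear level of the 11 was 20966 to 22075 on the NCSTN-hairpin arrays and 13775 to 14879.8 on the control arrays, and without VIM it was 10013.7 to 10628 on the NCSTN-hairpin arrays and 10690.9 to 11581.3 on the control arrays. VIM, INA and NEFL (0.43) were the 3 members called, and TUBB2B, ZCCHC12, CYFIP2 and LIN28B were not (-0.24, -0.08, -0.27 and -0.31). With median scaling 8 neuronal genes were called higher and 4 lower.

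Matrix genes fell more often than they rose, with 9 of 27 called lower and 2 higher and a median of -0.3304. Among the 25 detected on all 6 arrays, 7 were called lower and 2 higher. The laminin LAMA5 stood at 8.64, 8.65 and 8.64 on the NCSTN-hairpin arrays, against 9.66, 9.77 and 9.87 on the control arrays and fell by 1.13 (SE 0.0941, adjusted p = 7.93e-05). The fibrillar collagen COL5A2 fell by 1.06, COL1A1, detected on 2 of 3 NCSTN-hairpin arrays and 3 of 3 control arrays, was at least 1.53-fold lower, and COL2A1 was at least 1.57-fold lower. Over the collagen family 7 of 12 were called lower and 0 higher. For 3 of the 7 the probe missed detection on 1 or more arrays of the NCSTN group. The integrin ITGAV rose by 0.55. Tetraspanins, membrane organisers, had 6 of 13 called lower and 0 higher, with TSPAN4 at -1.23, TSPAN33 at -0.62 and TSPAN7 at -0.61. Of 26 genes of SRF and the actin cytoskeleton, a list that also holds VIM, 6 were called higher and 6 lower, with a median of 0.0703. CNN2 and TPM2 fell (-0.75 and -0.64) while ACTA2 rose by 0.56. With median scaling 3 matrix genes, 3 collagens and 2 tetraspanins were called, all lower, and without replicate 3 of the NCSTN group 4 collagens and 3 tetraspanins were. With median scaling 1 gene of the actin list was called higher and 2 lower, and without replicate 1 or 3 of the NCSTN group or replicate 1 of the control group 3 were called lower. Without replicate 1 of the NCSTN group 4 collagens, and without replicate 1 of the control group 3 tetraspanins, were called lower. ACTB and PFN1 were not called (0.12 and 0.04). In the Wnt list 6 of 22 were called lower and 2 higher, with the receptor FZD2 at -0.90, the ligand WNT5A at -0.71, the inhibitor NKD2 at -0.88 and DKK3 at least 1.58-fold lower. Of 19 targets and mediators of TGF-beta and BMP 6 were called higher and 4 lower, with a median of 0.0561, and with median scaling 3 and 4 were. ID1 and ID3, described with the Notch targets, were among those higher, and SMAD3 and TGFBR2 fell (-0.76 and -0.69). In the clock list 3 of 10 were called higher and 1 lower, and with median scaling 1 and 1. PER2, a repressor of the loop, rose by 1.08, and DBP, an output gene of it, was at least 2.11-fold lower.

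Lysosomal genes gave 5 of 33 called higher and 2 lower, which is 21.2% against 28.9% of all genes, with the sialidase NEU1 at 0.88 and the galactosidase GLA at -0.73. With median scaling 2 were called higher and 1 lower. Of 13 reference genes 1 was called, POLR2A (0.40). Among families defined by a shared symbol stem, 154 had at least 8 tested members. Deubiquitinases of the USP family had 1 of 29 called, USP8 (-0.72), and the PSMB, SEMA, SCARNA, DENND and ZCCHC families had 0 called among 8, 8, 8, 9 and 9. The ankyrin repeat family ANKRD had 9 of 28 called lower and 0 higher, led by ANKRD13D (-0.57), and the RNA-binding motif family RBM 9 of 31 called higher and 1 lower, led by RBM12 (0.78).

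Most genes with several probes gave 1 direction. Of 509 called genes with several kept probes, the sign was shared by all probes in 468, and every probe was called in the same direction in 240. In 7 genes probes were called in opposite directions, HMGN2, LARP6, STMN1, TBX18, TET1, TRAK1 and TRIOBP. TRAK1, an adaptor of mitochondrial transport, gave 1.05, -0.34 and 0.21 at its 3 probes, and STMN1, stathmin, gave 0.39 and -0.61. No direction is given for these genes. Among the genes described above as called, another kept probe was not called for BAX (0.37), CCN2 (0.42), CTH (-0.10), ELOVL6 (-0.32), LRP8 (-0.33), MRI1 (-0.16 and -0.31), POLD2 (-0.28) and SDHC (-0.29). The genes nearest the threshold show where it fell. UST, TBCB and SCIN passed with differences of -0.30, 0.29 and -0.32, and TM7SF3, TPRKB and SLC39A14 did not pass with 0.34, 0.40 and -0.36.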

How the data were processed

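Gene expression of 6 HEK293 samples was measured on Illumina bead arrays. Per the file headers, the authors' deposited table gives for each probe a signal intensity and its detection p-value, with the count of beads and their error. The intensity is linear and already reduced by background, since 27.07% to 28.3% of values per array lie below 0. Bead errors, 12 columns, were left out. A second deposited table by the authors holds log2 values and served as an alternative. GenomeStudio 2010 and R 3.0.2 appear in the submitters' processing notes with no step named.

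Intensities were corrected by normexp, its parameters inferred from detection p-values, raised by an offset of 16, quantile normalized over the 6 arrays and taken to log2, as limma's neqc does. Probes detected at p under 0.01 on all 3 arrays of at least 1 group were kept, 14885 of 47318. Names came from the platform annotation, with 1 gene for 16040 probes and several for 3, of which 16030 matched RefSeq of GRCh38.p14 by gene identifier. The 12077 named probes left 9506 genes, each by its brightest probe. The 2808 kept probes with no name here were left out of the gene-level fit and entered only the fit of all kept probes.

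Groups were compared with limma 3.58.1 in R 4.3.3, with p-values adjusted by Benjamini-Hochberg over the 9506 genes. The fit had 4 residual and, after moderation, 9.28 total degrees of freedom. An adjusted p under 0.05 makes a call. Every adjusted p given for a gene, by its brightest probe, comes from this fit. Adjusted p-values and calls of a gene's other probes come from a second fit of all 14885 kept probes, adjusted over those probes. The comparison of calls between probes of 1 gene rests on that probe-level fit too. A probe that missed detection on any array of its dimmer group has a bounded fold, taken against, per array, its own value or the lowest detected value, whichever is higher. In data simulated from these arrays, 200 of 9506 genes were changed. There, 86% of genes changed by 1 on the log2 scale and 40% of those changed by 0.5 were found. In the comparison itself 2749 genes were called, and the adjustment depends on the share changed. These rates therefore describe the simulated setting and may not carry over. Depth is unknown for arrays, and their number limits the precision. The genes and the 60 lists were chosen with earlier results of these data known. Named genes were drawn from the gamma-secretase subunits, the 25 largest changes each way among calls without overlap, the 6 largest called members and up to 4 bright uncalled members of each list, the 3 largest of each symbol family, genes beside the threshold and genes with opposed probes. The lists select 253 called genes, of which 174 are named, and the 154 families 372, of which 50 are. ACACA, ACLY, CCND1, CHGA, FASN, HES4, IRS4, ISG15, ISG20, NCAM1, PSAT1, SLC2A1, SREBF1, SRF and SYT1 lie outside this rule and were chosen after their values were seen.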

Additional observations from a re-analysis of the deposited data

How the results depend on the processing

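The count of 2749 called genes lay between 2196 and 3190 without background correction, with an offset of 50, with the authors' deposited values, with looser or no detection filters, with all 12 arrays in the fit, with an intensity trend in the variance, and with the mean of a gene's probes. With median scaling it was 872, of which 335 were higher and 537 lower. Genes called and at least 2-fold numbered 236, against 403 without background correction and 104 with the offset of 50, which compresses dim probes by its construction. The cause of the drop with median scaling was not tested. In the 6 fits that each left out 1 array, 1923 to 2310 genes were called (852 to 1050 higher and 1071 to 1260 lower), 230 to 257 of them at least 2-fold. The difference of NCSTN kept its call throughout, between -1.99 and -1.74. Of the 239 genes named as called, 161 held their call in every alternative and 5 changed sign in at least 1, all 5 with probes called in opposite directions. With the mean of a gene's probes LARP6 stood at -0.0014, STMN1 at -0.11, TBX18 at 0.13, TRIOBP at -0.0904 and TRAK1 at 0.31, and with all 12 arrays TRAK1 stood at 1.09. The groups share replicate numbers, but same-numbered samples showed no shared deviation (correlations of -0.0138, 0.0704 and -0.0086). Whether they were handled together cannot be decided from so few arrays, and the labels do not say. With the replicate block 2558 genes were called. The headers name no slide or scan, so a slide block was not run. Bead number and background limit dim genes, and 368 calls carry a bound.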

Other observations

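Genes of chromosome 7 fell more often than they rose. Of 459 tested, 33 were called higher (7.19%) and 94 lower (20.5%), with a median difference of -0.0888 against 0.0061 over all genes. With median scaling 8 were called higher and 33 lower. Genes of chromosome 21 had 11 of 105 called higher and 26 lower, with a median of -0.0811, and without replicate 3 of the NCSTN group 6 were called higher and 14 lower, while with median scaling 2 and 5 were. Chromosomes were taken from RefSeq annotation, and copy number was not measured.

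In 3 further families with a shared symbol stem, the shares called were 77.8% (hydroxysteroid dehydrogenases), 39.1% (kinesins) and 33.3% (Mediator), against 28.9% of all genes. The Mediator share lies near that of all genes. Of 9 hydroxysteroid dehydrogenase genes 2 were called higher and 5 lower. HSD17B10, a mitochondrial member, rose by 1.29, HSD17B12, which also serves fatty acid elongation, fell by 0.69, and HSD11B1L was at least 1.69-fold lower. Of 23 kinesin genes 2 were called higher and 7 lower, with KIF1B and KIF1A, carriers of axonal cargo, at -0.82 and -0.58, and the second probe of KIF1B at 0.14 (adjusted p = 0.393). Of 21 Mediator subunits 6 were called higher and 1 lower, led by MED8 (0.50) and MED24 (0.44).

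Among the 2808 kept probes with no gene name here, 521 were called, 265 higher and 256 lower, against 2749 of the 9506 named genes (28.9%). The 521 calls come from the fit of all kept probes and the 2749 from the fit of genes. The counts are therefore not directly comparable. Of the 521, 48 were at least 2-fold different.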
